A study of Mus musculus with 9 samples.

Results

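A group of 49 protein coding genes of the mouse lacrimal gland was lower at 24 months of age than at both 2 and 12 months. A gene belonged to it if its highest 24-month library lay below the lowest of the 6 libraries of 2 and 12 months by at least 0.4 on the deposited log2 scale, and if its 2-month mean on that scale was at least 5. Genes of immunoglobulins, T cell receptors, secretoglobins (Scgb), exocrine gland-secreted peptides (Esp) and solute carriers (Slc, Slco) were left out by the same rule. The 49 were 0.466% of the 10511 protein coding genes that met the conditions on level and name, and the whole table held 54232 genes. The members were chosen by their deposited log2 values in all 9 libraries, so their fall at that age is a description and carries no test. The 12-month against 2-month contrast is the only pair of ages that the rule did not set, although the rule still kept both ages well above 24 months.

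The samples were lacrimal glands of female C57BL/6J mice fed ad libitum, aged 2, 12 or 24 months, with 3 libraries at each age; titles of the youngest read 8W. All carry the same strain and sex, and age is the sole difference that the labels give between the groups. The series as a whole concerns lymphoid structures that appear in the ageing gland. Nothing in the labels states that each library came from its own mouse, so p-values measure only how far these samples spread, and that spread could be technical.

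The lacrimal gland makes the watery layer of tears. Most of it is acinar epithelium, whose cells fold, glycosylate, sulfate and store large amounts of secreted protein and so depend on dense ribosomes and endoplasmic reticulum. Ducts, contractile myoepithelial cells, nerves, vessels and connective tissue surround the acini. With age the gland of mice is known to gain immune cells and fibrous tissue. In bulk RNA, fewer cells of a type and less RNA per cell cannot be told apart.

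Depth was even, at 40516863 to 42573877 counts per library, and the lacrimal genes Ltf, Aqp5, Obp1a, Bhlha15 and Pax6 were abundant in every library. Salivary gland transcripts stood out in 3 libraries (2-month replicate 3, 12-month replicate 2 and 24-month replicate 2; 313 to 778 summed CPM, counts scaled to a common total, over 15 markers, against 32.3 to 92.2 in the others). The highest of the others was 2-month replicate 2, with 1829 reads of the marker Bpifa2 where the rest had 8 to 201. It was kept when those 3 libraries were left out. Skeletal muscle transcripts stood out in 12-month replicates 1 and 3, with 43.4 and 81.5 summed CPM against at most 4.2 elsewhere. The summed level of 15 fibroblast markers was 151 to 239 CPM at 2 months, 206 to 262 at 12 months and 346 to 607 at 24 months. Of the 14 fibroblast markers tested, 10 rose at 24 against 2 months (edgeR's quasi-likelihood test, adjusted p under 0.05; 9.82% of all genes rose). Mast cell markers were likewise highest at 24 months, at 15.3 to 20.7 summed CPM over 8 genes at 2 months, 17.3 to 24.8 at 12 months and 33.1 to 48.3 at 24 months. Most of each sum was Kit, which is also on the duct list and averaged 19.1, 17.5 and 29.2 CPM at 2, 12 and 24 months with edgeR's scaling. At 24 against 2 months 5 of 5 tested rose, Kit included. Tpsab1 had no count in any library, and Ms4a2 and Fcer1a had none in most. Macrophage markers summed to 56.0 to 100.1 CPM over 12 genes at 2 months, 205 to 300.1 at 12 months and 252 to 457 at 24 months, and 9 of 12 rose at 24 against 2 months. At 24 against 12 months 8 of 14 fibroblast, 2 of 5 mast cell and 3 of 12 macrophage markers rose, where 2.79% of all genes did. At 24 against 2 months 10 of 11 T cell, 8 of 10 B cell, 6 of 8 plasma cell and 9 of 11 adipocyte markers rose, and at 24 against 12 months 6 of the B cell markers fell. The part of these markers in the members' fall was not tested.

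Levels below are normalised counts, the deposited read counts divided by a library size factor, and log2 values add 1 to them first. The 24-month mean of a member was 0.883 to 63.4% of its 2-month mean, with a median of 42.9%. It was at most 50% of the 2-month mean in 32 members and at most 50% of the 12-month mean in 27. In 7 members it was under 25% of the 2-month mean, namely Gm12886, Gm12888, Cacna1b, Tcfl5, Adh7, Insyn1 and Brsk2. The median difference of log2 means was -1.19 for 24 against 2 months, -1.10 for 24 against 12 months and -0.19 for 12 against 2 months. Just inside the threshold of 0.4 lay Rps21, Rpl36 and Rps24, with gaps of 0.406, 0.407 and 0.414. Just outside lay Vasn, Cdk6 and Rplp2, with gaps of 0.395, 0.392 and 0.377. All 49 members passed the filter on low counts, and the smallest count of a member in any library was 8 reads.

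**Figure D1:**
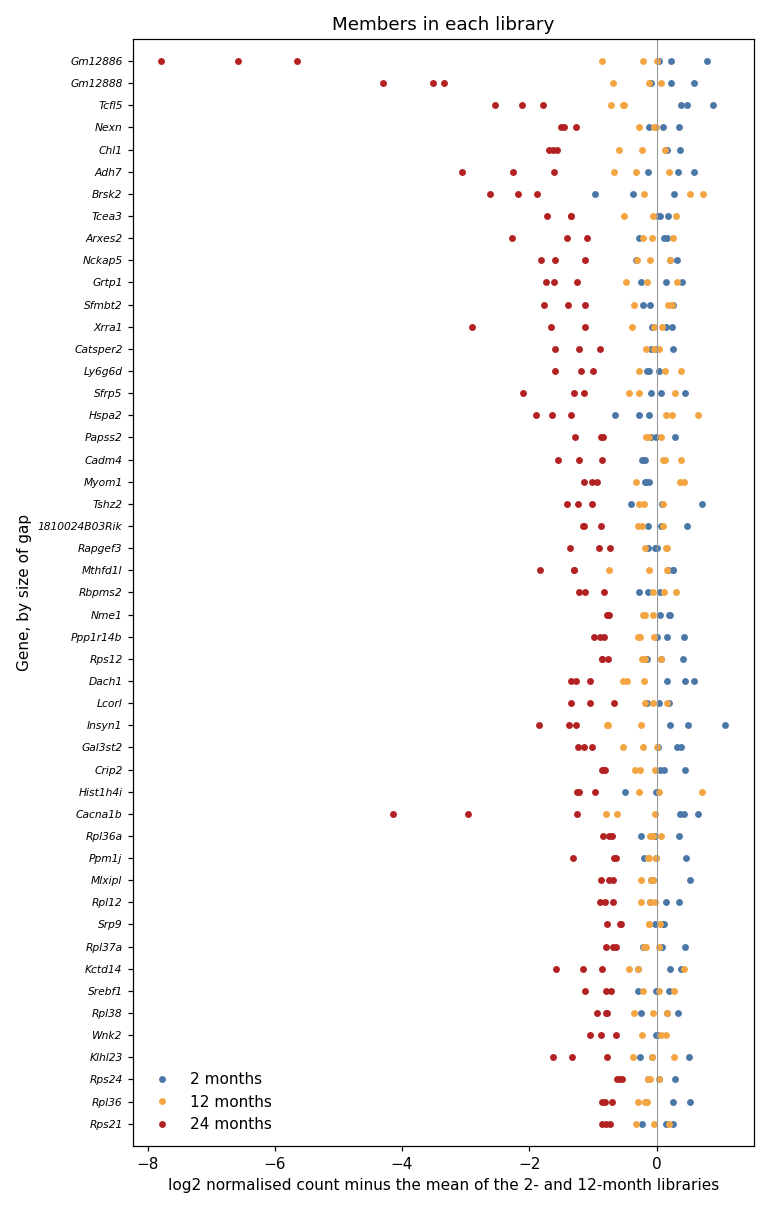
Each row is a member, ordered by the gap that chose it, and each point is a library; the x axis is the log2 normalised count minus the mean of the gene's 6 libraries of 2 and 12 months. The 24-month points lie left of all others in every row because the rule asked for it; Gm12886 and Gm12888 lie farthest left, and the 2- and 12-month points mix in 36 rows.

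The deepest fall belonged to a pair of related genes on chromosome 4, Gm12886 and Gm12888, which GENCODE M21 lists as protein coding on the minus strand of GRCm38. Gm12888 spans chr4:121316316-121324917 and Gm12886 spans chr4:121414735-121423099, with 89818 bases between them. A relative that is no member, Gm12887, lies farther along the same strand at chr4:121614271-121622103. The annotated transcripts of Gm12886 and Gm12888 are 89.7% identical over 1149 aligned bases, and no 100-base stretch of either occurs in a transcript of another gene. The stretch upstream of the 3 genes is shown because it is nearly the same in all of them while their counts went in opposite directions with age. The first line gives the 100 bases before the start of Gm12886 (RefSeq, GRCm38.p6, chr4:121423100-121423199, minus strand), and the others give the bases aligned to it in Gm12888 (chr4:121324916-121325015) and Gm12887 (chr4:121622126-121622225). Capitals mark bases that differ from Gm12886, 4 in Gm12888 and 5 in Gm12887.
Gm12886: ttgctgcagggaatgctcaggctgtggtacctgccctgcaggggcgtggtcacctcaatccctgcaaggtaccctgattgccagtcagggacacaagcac
Gm12888: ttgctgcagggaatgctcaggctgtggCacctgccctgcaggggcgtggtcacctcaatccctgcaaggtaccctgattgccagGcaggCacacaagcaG
Gm12887: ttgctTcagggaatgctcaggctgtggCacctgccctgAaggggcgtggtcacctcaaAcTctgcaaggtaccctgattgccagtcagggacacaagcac
Over the whole promoter window of 300 bases, identity was 93.3% between Gm12886 and Gm12887, 83.3% between Gm12886 and Gm12888 and 79.2% between Gm12887 and Gm12888.

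Gm12886 had 83268, 123255 and 73322 normalised counts at 2 months, then 61033, 39295 and 71858 at 12 months and 1409, 740 and 322 at 24 months. Its 24-month mean was 0.883% of the 2-month mean and 1.44% of the 12-month mean. Every 12-month library lay below every 2-month library, but that step did not pass the test (log2 fold change -0.69, SE 0.40, edgeR adjusted p = 0.342). Gm12888 had 212756, 337671 and 262100 normalised counts at 2 months, then 207247, 140262 and 236167 at 12 months and 22290, 19667 and 11444 at 24 months. The 2- and 12-month libraries of Gm12888 overlapped, and its 24-month mean was 6.57% of the 2-month mean. In counts of the whole library, Gm12888 took 0.0331 to 0.0510% at 24 months and 0.494 to 0.645% at 2 months.

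Gm12887 moved the other way and rose at both later ages. It had 3359, 1291 and 3698 normalised counts at 2 months, then 12802, 11108 and 9061 at 12 months and 20154, 22669 and 14634 at 24 months, with no overlap between any pair of ages. The rise was 1.99 on the log2 scale at 12 against 2 months (SE 0.32, edgeR adjusted p = 0.0037) and 2.78 at 24 against 2 months (SE 0.33, adjusted p = 0.000385). The later step, 0.79 at 24 against 12 months, did not pass (SE 0.31, adjusted p = 0.183), although it did without 2-month replicate 2 (adjusted p = 0.0297). Gm12887 made up 0.279 to 1.12% of the summed counts of the 3 genes at 2 months, 2.86 to 5.83% at 12 months and 46.0 to 55.4% at 24 months. Counts are not per length and the annotated transcript of Gm12887 is 360 bases, against 1149 and 1181 for the others, so these shares describe change with age and not which gene is the more abundant.

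**Figure D2:**
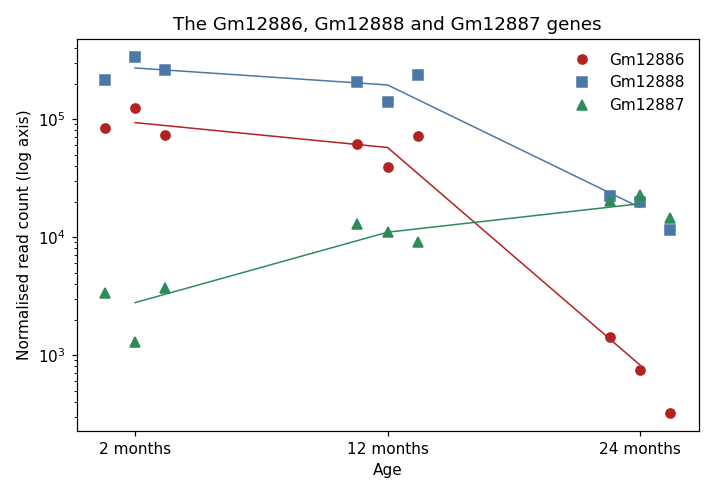
Normalised counts (log axis) of Gm12886, Gm12888 and Gm12887 by age; each point is a library and lines join the means of 3 libraries. Gm12886 and Gm12888 are lowest in the 24-month libraries, at 322 to 1409 and 11444 to 22290, while Gm12887 is highest there, at 14634 to 22669.

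The other members had varied known roles. Among regulators of transcription, Tcfl5, a basic helix-loop-helix factor best known from male germ cells, had 320, 451 and 340 normalised counts at 2 months, then 148, 169 and 172 at 12 months and 70.4, 40.9 and 55.4 at 24 months. Its 3 ages did not overlap, and it was the only member that edgeR called lower at 12 against 2 months. The 12-month step was -1.17 on the log2 scale (SE 0.20, edgeR adjusted p = 0.00466) and stayed past the threshold with any 1 library left out (adjusted p 0.0034 to 0.0337). It did not pass without the 3 libraries with salivary gland transcripts (-1.26, adjusted p = 0.0573). Leaving out the 2 with skeletal muscle transcripts kept only 1 library at 12 months, and the step was then -1.12.

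Tcea3, a transcription elongation factor, averaged 142 ± 8.96 normalised counts at 2 months, 129 ± 35.7 at 12 months and 48.0 ± 6.95 at 24 months (SD, n = 3 each). Sfmbt2, a Polycomb group protein, averaged 207 ± 36.6 at 2 months, 215 ± 44.9 at 12 months and 78.2 ± 17.5 at 24 months. Tshz2, a teashirt zinc finger protein, had 168, 221 and 190 at 24 months, and its 2-month libraries spread from 336 to 729. Dach1, a transcription factor of organ development, fell short of a call in its early step, with 12-month libraries at 46.9 to 59 against 76.3 to 103 at 2 months (-0.80 for the difference of log2 means; edgeR adjusted p = 0.0901). Hist1h4i, a histone H4 gene, had 152 to 185 normalised counts at 24 months and its highest value, 591, in 12-month replicate 3.

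Srebf1 and Mlxipl are the genes of SREBP1 and ChREBP, the transcription factors that switch on fatty acid synthesis in response to insulin and to glucose. Srebf1 had 2532, 2198 and 1799 normalised counts at 2 months, then 1891, 2655 and 2270 at 12 months and 1272, 1010 and 1342 at 24 months. Mlxipl had 88.3, 133 and 86.7 at 2 months, then 77.8, 88.7 and 86.3 at 12 months and 54.2, 49.5 and 57.1 at 24 months. In both genes the 2- and 12-month libraries overlapped, and the 24-month means were 55.5% (Srebf1) and 52.2% (Mlxipl) of the 2-month means. Of 30 genes of fatty acid and sterol synthesis that are no members, 6 rose and 3 fell at 24 against 2 months, with a median log2 fold change of 0.11 against 0.01 over all tested genes, of which 9.82% rose and 7.56% fell.

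Scd1, the stearoyl-CoA desaturase, was 1.77 higher on the log2 scale at 24 than at 2 months (SE 0.20, edgeR adjusted p = 0.000287), with 5803, 8794 and 5613 normalised counts at 24 months against 2476, 1762 and 1663 at 2 months. The elongase gene Elovl5 was 3.05 higher (adjusted p = 0.00469), although its 24-month libraries ranged from 407 to 3531 and the log2 fold change was 2.08 without 24-month replicate 2. Elovl3, a Harderian gland marker, had 6, 221 and 59 reads in 24-month replicates 1, 2 and 3 and at most 6 in any other library. The summed level of 10 markers of that gland was 168 to 207 CPM at 2 months, 235 to 269 at 12 months and 182 to 325 at 24 months. The part of Harderian gland transcripts in these lipid genes was not tested. Hmgcs1, which starts sterol synthesis, was lower (log2 fold change -0.81, adjusted p = 0.00569). The desaturase gene Scd2 had a log2 fold change of -0.87 (adjusted p = 0.0145), and missed the threshold without 24-month replicate 2 (adjusted p = 0.0516).

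**Figure D3:**
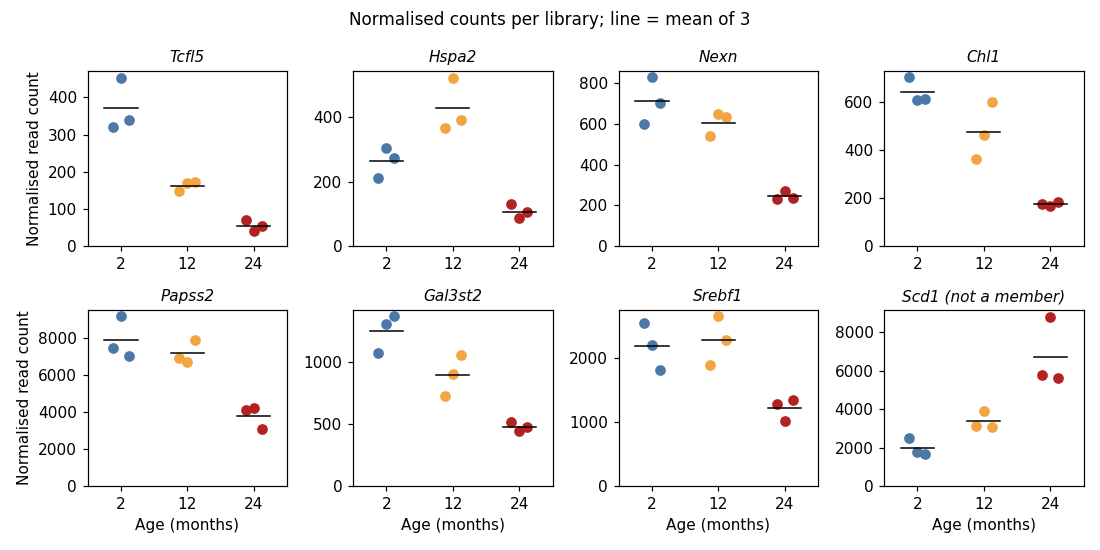
Normalised counts of 7 members and of Scd1, which is no member, by age in months; points are libraries, lines are means of 3 and each y axis starts at 0. Srebf1 is lowest at 24 months, at 1010 to 1342, where Scd1 is highest, at 5613 to 8794; Hspa2 is highest at 12 months, at 366 to 521.

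Several members have known roles in nerve cells or in adhesion between cells. Chl1, an adhesion molecule of the L1 family, had 705, 609 and 615 normalised counts at 2 months, then 366, 465 and 602 at 12 months and 177, 169 and 185 at 24 months. The 24-month libraries agreed closely while the 12-month ones spread up to the 2-month level. Cacna1b, the pore subunit of the N-type calcium channel, had 445, 363 and 381 at 2 months, then 184, 162 and 277 at 12 months and 118, 35.2 and 15.1 at 24 months. Its 3 ages did not overlap, and its 24-month libraries were far apart on a log scale. Insyn1, a protein of inhibitory synapses, averaged 68.6 ± 22.2 at 2 months, 29.0 ± 6.58 at 12 months and 15.1 ± 3.26 at 24 months (SD, n = 3 each).

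Brsk2, a kinase of neuronal polarity, was scarce, with 23.4 to 56.6 normalised counts at 2 months, 40.3 to 77.8 at 12 months and 6.71 to 11.9 at 24 months. Cadm4, an adhesion molecule of the nectin-like family, had 2746, 2766 and 2820 at 2 months, then 3512, 3418 and 4194 at 12 months and 1771, 1377 and 1097 at 24 months. It thus stood highest at 12 months, with no overlap, though its early step did not pass the test (edgeR adjusted p = 0.107). The summed level of 21 markers of nerve and Schwann cells was 74.8 to 87.7 CPM at 2 months, 93.9 to 102 at 12 months and 89.3 to 133 at 24 months, and 2 of 12 tested rose at 24 against 2 months, where 9.82% of all genes did.

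Members with known roles in actin or muscle included Nexn, an actin binding protein of the muscle Z disc. It had 600, 829 and 702 normalised counts at 2 months, then 538, 647 and 631 at 12 months and 230, 271 and 237 at 24 months. Myom1, the M band protein myomesin, had 47.2, 48.0 and 49.2 at 2 months, then 73.1, 42.7 and 69.4 at 12 months and 23.8, 27.6 and 26.0 at 24 months. Its 2 high 12-month values came from the libraries that held skeletal muscle transcripts. Crip2, a LIM domain protein, averaged 4665 ± 686 at 2 months, 3502 ± 414 at 12 months and 2259 ± 38.9 at 24 months (SD, n = 3 each). Rbpms2, an RNA binding protein of smooth muscle, had 182 to 240 at 24 months and 353 to 525 at the earlier ages. Of 12 tested markers of myoepithelial cells and smooth muscle, 3 fell and 1 rose at 12 against 2 months. Among all genes 2.52% fell and 5.41% rose in that step. At 24 against 12 months 4 of the 12 rose, where 2.79% of all genes did. At 24 against 2 months 1 rose, where 9.82% of all genes did.

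Signalling members were mostly moderate in size. Sfrp5, a secreted protein that binds WNT ligands, had 2437, 3171 and 2175 normalised counts at 2 months, then 1707, 1910 and 2817 at 12 months and 1046, 945 and 537 at 24 months. Its relatives Sfrp1 and Sfrp2 did not pass the test at 24 against 2 months, with log2 fold changes of 0.44 and 1.42 (edgeR adjusted p = 0.114 and 0.317). Rapgef3, the exchange factor EPAC1 that cyclic AMP activates, averaged 685 ± 37.4 at 2 months, 738 ± 95.6 at 12 months and 361 ± 77.6 at 24 months (SD, n = 3 each). Wnk2, a kinase that regulates ion transport, had 1728 to 1750 at 2 months, 1489 to 1930 at 12 months and 844 to 1112 at 24 months. Ppp1r14b, an inhibitor of protein phosphatase 1, ended at 46.5% of its 2-month mean. Ppm1j, a protein phosphatase, ended at 51.4%, and Grtp1, a TBC domain protein named for its regulation by growth hormone, at 31.7%.

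Enzymes among the members covered sulfation, retinol oxidation, one-carbon units and nucleotides. Papss2 makes PAPS, the sulfate donor of sulfotransferases, and was among the most abundant members, with 7494, 9221 and 7067 normalised counts at 2 months, then 6948, 6713 and 7894 at 12 months and 4115, 4200 and 3099 at 24 months. Gal3st2, a sulfotransferase that acts on galactose of mucin-type sugars, had 1068, 1310 and 1370 at 2 months, then 724, 902 and 1058 at 12 months and 518, 443 and 476 at 24 months. Papss2 libraries overlapped between 2 and 12 months, whereas those of Gal3st2 did not. Of 3081 100-base stretches of Gal3st2 transcripts, 60.6% also occur in its neighbours Gal3st2b and Gal3st2c, so the authors' counting could split them.

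Both copies fell too at 24 against 2 months, with log2 fold changes of -0.69 for Gal3st2b (SE 0.11, edgeR adjusted p = 0.00211) and -0.66 for Gal3st2c (SE 0.12, adjusted p = 0.00455). Gal3st2b was already lower at 12 against 2 months (-0.53, adjusted p = 0.0126, up to 0.0671 with 1 library left out). Its later step, 24 against 12 months, was -0.17 (adjusted p = 0.450). Gal3st2c had steps of -0.33 and -0.33, and neither passed (adjusted p = 0.123 and 0.151). Over a list of sulfate activation and transfer genes, chosen after the values were seen, 1 rose and 4 fell among 26 that are no members at 24 against 2 months, with a median log2 fold change of 0.23 against 0.01 over all genes, of which 9.82% rose and 7.56% fell.

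Adh7, a class IV alcohol dehydrogenase that oxidises retinol, had 154, 213 and 255 normalised counts at 2 months, then 135, 105 and 193 at 12 months and 34.7, 54.2 and 19.3 at 24 months. Mthfd1l, which makes formate in mitochondria, had 137, 137 and 129 at 2 months, then 104, 127 and 67.6 at 12 months and 45.5, 45.7 and 31.0 at 24 months. Among 27 other genes of amino acid and one-carbon metabolism, 3 rose and 5 fell at 24 against 2 months, where 9.82% of all genes rose and 7.56% fell. Bcat2, a branched chain aminotransferase, was among those that fell (-0.65, edgeR adjusted p = 0.00504) and Got1, an aspartate aminotransferase, among those that rose (0.85, adjusted p = 0.0115). Nme1, a nucleoside diphosphate kinase, was even within each age, at 941 to 1054, 787 to 872 and 529 to 540 for 2, 12 and 24 months.

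Members best known from the testis were also present. Hspa2, the HSP70 chaperone of male germ cells, had 210, 305 and 274 normalised counts at 2 months, then 366, 521 and 391 at 12 months and 130, 88.5 and 105 at 24 months. It was highest at 12 months with no overlap, a rise of 0.71 on the log2 scale over 2 months (SE 0.19, edgeR adjusted p = 0.0435). That call was lost when any of the 6 libraries of 2 and 12 months was left out: the adjusted p was 0.115, 0.0755 and 0.101 without 2-month replicates 1, 2 and 3 and 0.0576, 0.223 and 0.0532 without 12-month replicates 1, 2 and 3. It was also lost without the libraries with salivary gland transcripts (log2 fold change 0.56, adjusted p = 0.371). Leaving out those with skeletal muscle transcripts kept only 12-month replicate 2 at that age, and the log2 fold change was then 1.0011. Catsper2, a sperm calcium channel subunit, was scarce, at 34.5 to 44.1 at 2 months, 32.6 to 37.5 at 12 months and 11.4 to 19.3 at 24 months.

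The remaining 8 members outside the ribosome were Arxes2, Nckap5, Xrra1, Ly6g6d, Lcorl, Kctd14, Klhl23 and 1810024B03Rik. Their 24-month means were 28.0 to 49.0% of their 2-month means. Arxes2 shares 37.7% of its 100-base stretches with Arxes1, which had 64.7, 41.9 and 29.3 normalised counts at 2 months, then 36.6, 59.4 and 51.6 at 12 months and 30.3, 11.4 and 5.03 at 24 months. In 9 members over 10% of such stretches also occur in transcripts of other genes. Besides Gal3st2 and Arxes2 these were Rpl36 (55.3%), Rpl38 (19.7%), Rpl36a (19.5%), Ppp1r14b (17.6%), Rps12 (16.75%), Hist1h4i (15.1%) and Rpl12 (14.2%). The effect of this sharing on their counts was not tested.

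Ribosomal proteins formed a large family among the members. They made up 8 of the 49, or 16.3%, against 76 of the 10511 genes that met the conditions on level and name, or 0.723%. The 8 were Rps12, Rps21, Rps24, Rpl12, Rpl36, Rpl36a, Rpl37a and Rpl38, which all build the cytosolic ribosome. Their 24-month means were 49.2 to 63.4% of the 2-month means. Their gaps lay near the threshold of 0.4, from 0.406 (Rps21) to 0.531 (Rps12), and only that of Rps12 was past 0.5. With counts scaled by library totals alone, only Rpl12 of the 8 met the rule, so the share of this family depends on these settings. Rps24 had 25427, 33927 and 28591 normalised counts at 2 months, then 25360, 25851 and 28610 at 12 months and 18167, 19030 and 18575 at 24 months. Rps12 had 12382, 18388 and 14474 at 2 months, then 12182, 11697 and 14370 at 12 months and 7577, 8098 and 7545 at 24 months. In all 8, 2-month replicate 2 was the highest and replicate 1 the lowest library of that age, and 12-month replicate 3 was the highest of its age, so these genes varied together within an age.

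Mammalian ribosomal protein genes commonly start transcription within a run of pyrimidines, through which the translation of their mRNA is regulated. The first bases are shown because the members differ in that run around the RefSeq start. Each line gives the 10 bases before the RefSeq start and the 20 from it on, with the longest run of pyrimidines in capitals (GRCm38.p6; Rps12 chr10:23787190-23787219, minus strand; Rpl38 chr11:114668570-114668599, Rps24 chr14:24490668-24490697 and Rpl36a chrX:134585644-134585673, plus strand).
Rps12: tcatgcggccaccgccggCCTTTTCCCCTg
Rpl38: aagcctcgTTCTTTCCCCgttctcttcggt
Rps24: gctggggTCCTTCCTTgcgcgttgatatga
Rpl36a: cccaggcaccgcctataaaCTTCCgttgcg
A run of at least 8 pyrimidines in this window was found for 3 of the 7 ribosomal protein members with a RefSeq promoter, or 42.9%, the first 3 shown. It was found for 20 of 59 ribosomal protein genes in all, 4 of 38 other members and 11.2% of 27025 promoters, which were not limited by level or gene type. The window and the length of the run were chosen after the values were seen. RefSeq and GENCODE starts can differ, as in Rps24, whose GENCODE gene begins at chr14:24487125. A window without the run therefore does not show that the gene lacks it.

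Ribosomal protein genes that are no members moved the same way. Of 68 tested ribosomal protein genes that are no members, 61 fell at 24 against 2 months, where 7.56% of all genes fell, and 11 fell at 24 against 12 months, where 1.6% fell (edgeR adjusted p under 0.05). The median log2 fold change of these 68 was -0.62 at 24 against 2 months and -0.44 at 24 against 12 months, against 0.01 and -0.02 over all genes, and all 68 were below 0 in both. Rpl3, a core protein of the large subunit and no member, had 9831, 9667 and 9214 normalised counts at 24 months against 12952, 16200 and 12634 at 2 months (-0.54, SE 0.12, adjusted p = 0.0112). At 12 against 2 months 0 of the 76 were called by edgeR in either direction and 3 were called lower by DESeq2; 7 had an unadjusted p under 0.05 in edgeR, and the median was -0.16.

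The number of calls depended on the scaling and on a few libraries. Scaling by library totals alone raised the all-gene median by 0.30 at 24 against 2 months and by 0.30 at 12 against 2 months. At 24 against 2 months the median of all 76, members included, was -0.32 with library totals, with 19 of 76 called lower against 69 by TMM. Relative to the median of all genes it was -0.62 with library totals and -0.63 by TMM. At 12 against 2 months the median of the 76 was 0.16 with library totals, where that of all genes was 0.31; relative to all genes it was -0.15, and -0.17 by TMM. Without the 3 libraries with salivary gland transcripts, 4 of 76 were called lower at 24 against 2 months and 0 at 24 against 12 months, with medians of -0.66 and -0.50. Leaving out the 2 with skeletal muscle transcripts kept only 1 library at 12 months. The medians were then -0.62 at 24 against 2 months and -0.38 at 24 against 12 months. At 24 against 2 months, 42 were called without 2-month replicate 2 and 43 without 24-month replicate 3. At 24 against 12 months, 19 calls became 30, 36 and 8 without 2-month replicates 1, 2 and 3, became 6, 3 and 1 without 12-month replicates 1, 2 and 3, and became 6, 4 and 3 without 24-month replicates 1, 2 and 3.

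**Figure D4:**
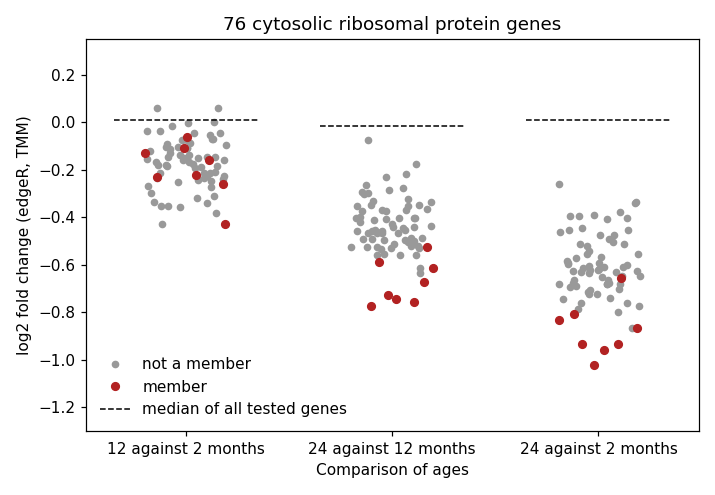
Log2 fold changes (edgeR, TMM) of 76 cytosolic ribosomal protein genes in the 3 comparisons of ages; red points are the 8 members, grey points the other 68, and dashed lines the median of all tested genes. All 76 lie below 0 at 24 against 12 and at 24 against 2 months, with medians of -0.46 and -0.63; for the 8 members the rule fixed that direction.

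Srp9, a subunit of the signal recognition particle that leads ribosomes to the endoplasmic reticulum, belongs beside the ribosome. It had 3686, 4069 and 4020 normalised counts at 2 months, then 3877, 3443 and 3439 at 12 months and 2554, 2523 and 2181 at 24 months. Its partner Srp14 did not pass the test at 24 against 2 months (-0.12, SE 0.09, edgeR adjusted p = 0.391). Of 36 other genes of translocation into the endoplasmic reticulum and N-glycosylation, 10 fell at 24 against 2 months, where 7.56% of all genes fell, with a median of -0.26 against 0.01 over all genes. At 24 against 12 months 0 of them were called (edgeR; 6 had an unadjusted p under 0.05 and DESeq2 called 2). Sec61b, of the channel through which secreted proteins enter, fell by 0.66 on the log2 scale (SE 0.11, adjusted p = 0.00222), and Ssr2, of the translocon-associated protein complex beside that channel, fell by 0.51 (SE 0.11, adjusted p = 0.011). The median of the 36 was -0.15 at 12 against 2 months and -0.085 at 24 against 12 months. For these 2 steps Sec61b had log2 fold changes of -0.32 and -0.35 (edgeR adjusted p = 0.088 and 0.0875). Ssr2 had -0.38 and -0.13 (edgeR adjusted p = 0.060 and 0.601). At 12 against 2 months 1 of the 36 was called lower, where 2.52% of all genes were. The median of this list thus lay below that of all genes in both steps, though hardly any single gene passed in either.

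The step that the rule did not set, 12 against 2 months, was small in most members. Among the 49, edgeR called 1 lower, Tcfl5, where 2.52% of all genes were lower, and 1 higher, Hspa2, where 5.41% were higher; 1 member is 2.04%. A further 7 had an adjusted p between 0.05 and 0.1, and all 7 were lower: Nme1, Ppp1r14b, Insyn1, Gal3st2, Crip2, Rpl36 and Dach1. The mean was below the 2-month mean in 39 members and above it in 10, and the median log2 fold change was -0.18 against 0.01 over all genes. All 12-month libraries lay below all 2-month libraries in 11 members, or 22.4%, where 15.3% of the 10511 genes did so, and above them in 2, or 4.08%, where 12% did. The 11 were Gm12886, Tcfl5, Chl1, Mthfd1l, Nme1, Ppp1r14b, Dach1, Insyn1, Gal3st2, Crip2 and Cacna1b, and the 2 were Hspa2 and Cadm4.

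How many members were called lower at 12 against 2 months changed with the method. All genes here means every gene tested, not limited by the rule's level or by gene type, so the shares compare unlike sets. DESeq2 called 8 lower (16.3% of members, against 4.7% of all genes) and 2 higher (4.08% against 7.48%). With limma voom and sample weights 7 were lower (14.3% against 3.02%) and 1 higher (2.04% against 3.9%), and edgeR with no filter on low counts called 7 lower (14.3% against 2.11%) and 2 higher (4.08% against 4.35%). By edgeR, 4 were lower without 2-month replicate 1 (8.16% against 2.59%), 5 without 12-month replicate 3 (10.2% against 2.29%) and 2 without 24-month replicate 1 (4.08% against 2.5%). Without the libraries with salivary gland transcripts edgeR called 0 members in either direction, where it called 0.645% of all genes higher and 0.199% lower; 4 members were lower and 2 higher at an unadjusted p under 0.05. Without those with skeletal muscle transcripts it also called 0, where 3.93% of all genes were higher and 0.644% lower; 9 members were lower and 1 higher at an unadjusted p under 0.05. For the contrasts that chose the members, edgeR put 48 of 49 lower at 24 against 2 months, beside 7.56% of all genes, and 43 of 49 at 24 against 12 months, beside 1.6%; the rule fixed that direction.

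**Figure D5:**
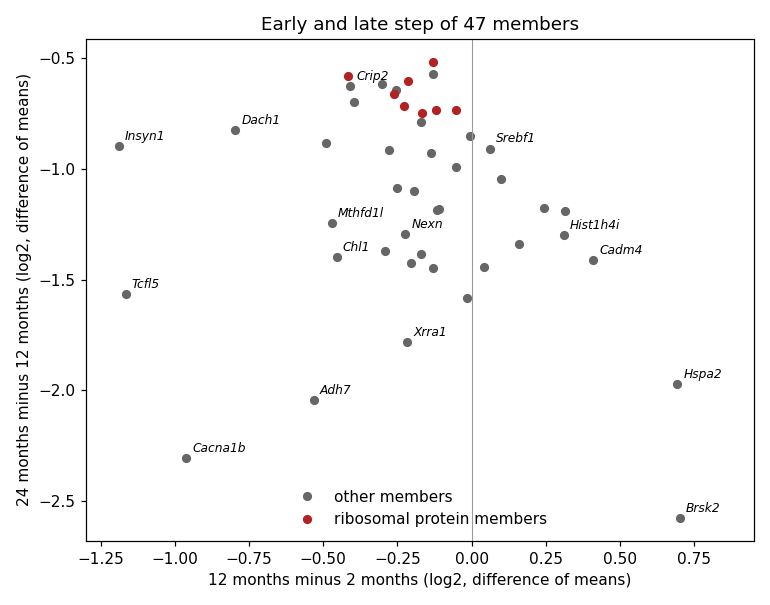
Differences of log2 means of 47 members, with the 12-month against 2-month step on the x axis and the 24-month against 12-month step on the y axis; red points are ribosomal protein genes, and Gm12886 and Gm12888 lie off the scale. Both axes use the 12-month libraries. Most points lie between -0.5 and 0.5 on the x axis; Insyn1 and Tcfl5 lie farthest left and Hspa2 and Brsk2 farthest right.

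Members lay on 18 chromosomes. Apart from Gm12886 and Gm12888, the nearest pair on a chromosome was Tcfl5 and Rps21, with 363511 bases between them. RefSeq (GRCm38.p6) held a promoter window, from 250 bases before the start to 50 after it, for 45 of the 49. Searched on both strands, GGGCGG, the GC box, was in 55.6% of those windows against 35.9% of all 27025. AGGTCA, a nuclear receptor motif, was in 2.22% against 16.0%, and CACGTG, the E-box to which factors such as ChREBP and SREBP1 can bind, in 4.44% against 7.24%. CCAAT was in 37.8% against 37.9%, TATAAA in 8.89% against 14.2%, AGAACA, part of the glucocorticoid and androgen receptor site, in 13.3%, against 5139 of the 27025 windows, and TGTTTAC, a forkhead motif, in 0 of 45 against 3.55%. A window with several of these motifs counts for each, overlapping or not, and a match is no evidence of binding. The 27025 windows were not limited by level or gene type as the members were, so the shares compare unlike sets.

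Which genes belong depended on the settings. With a gap of 0.3 there were 99 members and with 0.5 there were 29. With TMM-scaled CPM 44 of the 49 remained and Dach1, Insyn1, Klhl23, Mlxipl and Ppm1j did not. With library totals alone the rule found 23 genes, 18 of them among the 49: Gm12886, Gm12888, Tcfl5, Nexn, Chl1, Adh7, Tcea3, Grtp1, Sfmbt2, Xrra1, Ly6g6d, Sfrp5, Hspa2, Papss2, Tshz2, Rapgef3, Cacna1b and Rpl12. The mirrored rule, highest at 24 months only, found 94 genes.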

How the data were processed

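RNA of lacrimal glands was sequenced in 9 libraries. Per the submitters' processing notes, the authors used cutadapt, FastQC, STAR, HTSeq and DESeq2 with GRCm38. Their versions, strand setting and annotation release are not stated there. The authors deposited read counts per gene and log2 values, which equal log2(count / size factor + 1) within 1e-06 for 100% of values. The deposited log2 values chose and described the members. Tests used the deposited counts and R 4.3.3 with edgeR 4.0.16 (quasi-likelihood F test, filterByExpr set to a minimum count of 10, scaling by TMM), all 9 libraries in 1 model of the 3 ages, 14944 genes, Benjamini-Hochberg adjustment over all of them, called under 0.05. Residual degrees of freedom were 6 and the common coefficient of variation 21.2%. At 40516863 to 42573877 counts per library, scarce members carry wide counting error, and counts are reads, not molecules.

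Members and lists were chosen with earlier results of these data known. The text names the members with the 20 largest gaps, the 10 most abundant at 2 months, those in a planned list or called at 12 against 2 months, and those at the threshold; of each planned list it could name up to 4 other genes, those called at 24 against 2 months with the smallest p. The ribosomal protein list, the sulfate list, further members named for their roles, and Gm12887, Srp14, Rpl3, Sfrp1, Sfrp2, Arxes1, Gal3st2b and Gal3st2c were chosen after their values were seen. Coordinates come from GENCODE M21 and promoters from RefSeq, both GRCm38; shared stretches of transcripts were counted in windows of 100 bases. In simulated data with 200 changed genes, the test recovered 50% of changes of 1 log2 unit and 66% of 2 units at 12 against 2 months, with 7 false among 123 calls over 14708 genes. Alternatives were RLE scaling, library totals, other filters and thresholds, DESeq2 1.42.0, limma voom 3.58.1, a replicate block, 2 ages alone and libraries left out. Tables were handled with Python 3.11.15 and pandas 2.3.3.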

Additional observations from a re-analysis of the deposited data

How the results depend on the processing

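With calls at 12 against 2 months of 808 higher and 377 lower, 24 against 2 months of 1467 and 1130, and 24 against 12 months of 417 and 239, counts were sensitive to scaling and to single libraries. In that order, library totals alone gave 1614 and 80, 2626 and 191, and 202 and 138. Without a filter on low counts there were 1363 and 663 at 12 against 2 months and 874 and 612 at 24 against 12 months. DESeq2 gave 703 lower at 12 against 2 months, and 729 and 479 at 24 against 12 months. Without the 3 libraries with salivary gland transcripts there were 97 and 30, 484 and 142, and 134 and 36. Without the 2 with skeletal muscle transcripts there were 105 lower at 12 against 2 months, and 61 and 71 at 24 against 12 months. Adjusted p under 0.01 left 296 and 87, 538 and 353, and 153 and 58. With any 1 library left out, the ranges were 314 to 916 and 103 to 417, 691 to 1623 and 469 to 1115, and 207 to 426 and 105 to 274.

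Of members, 1 was called higher and 1 lower at 12 against 2 months. Higher calls were 2 with library totals, with no filter, with DESeq2 and with only the 2 ages compared. They were 0 without the salivary gland libraries and at adjusted p under 0.01. Lower calls were 7 with no filter, 8 with DESeq2, 7 with limma voom, 2 with only the 2 ages compared, and 0 without the salivary gland libraries. With 1 library left out they ranged from 0 to 2 higher and 1 to 5 lower. By the rule, the 49 members became 99 and 29 with gaps of 0.3 and 0.5, 23 with library totals, 117 without the salivary gland libraries, and 54 to 99 with 1 library left out, 99 without 24-month replicate 1 and 81 without 24-month replicate 2; fewer libraries make the rule easier to meet.

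Ribosomal protein genes called lower, an alternative chosen after seeing the data, were 69 at 24 against 2 months and 19 at 24 against 12 months. Library totals gave 19 at 24 against 2 months, adjusted p under 0.01 gave 35 and 1, and leaving out the salivary gland libraries gave 4 and 0. At 24 against 12 months there were 45 with no filter, 55 with DESeq2, 30 with limma voom and 29 with only the 2 ages compared. With 1 library left out they ranged from 42 to 72 and from 1 to 36.

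Deviations of same-numbered libraries of different ages had correlations of -0.154 to 0.061, and those of differently numbered ones -0.19 to 0.228. These values show no pairing by replicate number, but with 3 libraries at each age they cannot exclude it. With the replicate block, calls were 511 higher and 190 lower at 12 against 2 months and 277 and 132 at 24 against 12 months, members called higher were 0, Hspa2 had an adjusted p of 0.0841, and ribosomal protein genes called lower at 24 against 12 months were 6. Among 719 values of single genes under an alternative, 581 kept their side of the threshold, 109 lost and 28 gained a call, and 1 changed direction: Nme1 at 12 against 2 months, with a log2 fold change of 0.0147 with library totals, where the median of all genes was 0.31; relative to that median it was -0.30 with both scalings. The cause of these changes was not tested.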

Other observations

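The same gap and level at 24 months were met by 15 genes that are not protein coding and 9 that the rule left out by name. The largest gap among the genes that are not protein coding belonged to Gm38197, at 1.61, followed by the pseudogene Gm15666 at 0.907 and the long noncoding RNA gene Gm5570 at 0.857. Among those left out by name were the exocrine gland-secreted peptide genes Esp23, Esp31, Esp15, Esp38 and Esp34, with gaps of 4.20, 1.93, 1.01, 0.822 and 0.427. The others were the organic anion transporter genes Slco1a6 and Slco1a5, with gaps of 2.41 and 2.16, the amino acid transporter gene Slc43a2 at 0.958 and the monocarboxylate transporter family gene Slc16a12 at 0.635. The same gap with both 12 and 24 months below 2 months was met by 35 genes. Without a minimum gap, 778 of the 10511 genes had all 24-month libraries below the 6 others and 675 had them above.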
